A study of Homo sapiens with 18 samples.

Results

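The PAX family comprises 9 human genes, PAX1 to PAX9, and 112 of the 45354 peaks in 5 ChIP-seq lists fell within 50 kb of their hg19 gene bodies. Peaks were assigned to the genes by position. ChIP-seq recovers the DNA bound by a protein or carrying a histone mark, and a peak is a stretch where that DNA is enriched. All lists came from A673, an established Ewing sarcoma cell line that was left untreated. RING1B and H2Aub1 (monoubiquitinated histone H2A) had 2 replicates each, and EWSR1-FLI1 had 1 sample. Of the 18 samples of the series, the other 13 (inputs, BMI1, CBX7 and the shRING1B and shCTRL cells) were not analysed here, and nothing in the labels says that replicates came from separate cultures.

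PAX proteins are transcription factors that bind DNA through a paired domain and direct the development of organs and tissues. They fall into 4 groups of close relatives, namely PAX1 with PAX9, PAX2 with PAX5 and PAX8, PAX3 with PAX7, and PAX4 with PAX6. Polycomb complexes keep such developmental genes silent in cells of other lineages. RING1B is a catalytic subunit of Polycomb repressive complex 1, and H2Aub1 is the mark that this complex writes. EWSR1-FLI1 is the fusion oncoprotein of Ewing sarcoma and binds DNA through the ETS domain of FLI1.

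The bases before RefSeq gene starts are shown to compare the promoters of genes with and without the mark. The 250 bases upstream of a RefSeq start (GRCh38.p14) are printed for PAX2 and PAX6, whose starts carried H2Aub1 in both replicates, for PAX7, whose start was flanked by it, and for PAX8, which had no reproducible region. Each reads 5′ to 3′ toward the start, with every CG dinucleotide in capitals. PAX2 lies on the plus strand at chr10:100745332-100745581, PAX6 on the minus strand at chr11:31817962-31818211, PAX7 on the plus strand at chr1:18630596-18630845 and PAX8 on the minus strand at chr2:113278922-113279171.
PAX2: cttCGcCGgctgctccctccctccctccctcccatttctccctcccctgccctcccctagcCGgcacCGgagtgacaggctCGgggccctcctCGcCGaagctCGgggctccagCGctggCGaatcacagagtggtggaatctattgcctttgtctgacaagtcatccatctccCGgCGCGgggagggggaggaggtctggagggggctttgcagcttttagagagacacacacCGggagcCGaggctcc
PAX6: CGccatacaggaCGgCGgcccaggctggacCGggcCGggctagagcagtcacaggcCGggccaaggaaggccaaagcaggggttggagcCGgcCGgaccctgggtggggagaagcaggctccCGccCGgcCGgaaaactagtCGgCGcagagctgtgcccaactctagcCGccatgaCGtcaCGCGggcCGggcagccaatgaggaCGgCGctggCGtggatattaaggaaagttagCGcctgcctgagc
PAX7: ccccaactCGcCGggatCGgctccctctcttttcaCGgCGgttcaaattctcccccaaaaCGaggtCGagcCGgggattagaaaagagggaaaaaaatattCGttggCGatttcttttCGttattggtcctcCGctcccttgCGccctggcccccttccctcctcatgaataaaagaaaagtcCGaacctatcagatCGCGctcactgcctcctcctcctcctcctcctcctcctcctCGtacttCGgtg
PAX8: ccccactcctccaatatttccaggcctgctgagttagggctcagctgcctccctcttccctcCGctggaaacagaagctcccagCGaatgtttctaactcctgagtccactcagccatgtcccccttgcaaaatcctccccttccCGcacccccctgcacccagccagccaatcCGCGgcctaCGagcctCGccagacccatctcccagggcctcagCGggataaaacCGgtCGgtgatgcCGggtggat

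The number of CG dinucleotides in these stretches was 15 for PAX2, 22 for PAX6, 18 for PAX7 and 11 for PAX8. Divided by the number that the C and G content predicts, this gave CpG ratios of 0.56, 0.76, 1.05 and 0.52, beside a median of 0.56 over all 35116 RefSeq promoters. PAX7 therefore ranked high by this ratio, with 5.06% of all promoters at or above it. Its count of CG dinucleotides was lower than that of PAX6, and its GC content was 54.8%, against a median of 58.0% over all promoters. RefSeq entries existed for 8 PAX genes (PAX1 had no entry), and for genes with several starts the start was used whose distance to the far gene end came closest to the hg19 length. These lengths were equal for PAX8 (62925 bp) and close for PAX2 (84363 against 84231 bp), but they differed for PAX5 (201000 against 195946 bp), PAX6 (28936 against 33170 bp), PAX7 (118021 against 105133 bp) and PAX9 (21795 against 20239 bp), and for PAX4 (5736 against 5435 bp), so it was not established that those stretches adjoin the hg19 starts used for the peaks. A ratio of at least 0.6 together with a GC content of at least 50% was met by 4 of the 8 (PAX3, PAX5, PAX6 and PAX7) and by 45.0% of all promoters. PAX9 had a ratio of 1.00 at a GC content of 46.8%. PAX4, which had no peak in any list, had a GC content of 42.4% and 0 CG dinucleotides before the start used. By ratio, PAX7 (1.05), PAX9 (1.00), PAX5 (0.89) and PAX6 (0.76) came first, and each had reproducible H2Aub1. PAX3 (0.67) had H2Aub1 in 1 replicate only, and PAX2, at the median of all promoters (0.56), had the most kilobases under it. PAX8 (0.52) and PAX4 (0.00) had no reproducible region. This order depends on the start used for each gene. The other PAX9 start had a ratio of 0.59, below that of PAX3, and the PAX6 starts ranged from 0.23 to 0.92. No pattern between ratio and mark is therefore read from it. A link between ratio and mark was not tested.

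H2Aub1 was found at more PAX genes than RING1B or EWSR1-FLI1, but its lists were also longer. They held 26423 and 10268 peaks, against 2573 and 3945 for RING1B and 2145 for EWSR1-FLI1. H2Aub1 formed reproducible regions, in which peaks of both replicates met, at 6 of the 9 genes (PAX1, PAX2, PAX5, PAX6, PAX7 and PAX9). Genome-wide, 15.8% of consecutive 163 kb windows held such a region, where 163 kb is the median PAX window. Reproducible RING1B regions were found at 3 genes (PAX2, PAX5 and PAX6), beside 7.04% of genome windows, and EWSR1-FLI1 peaks at 3 others (PAX7, PAX8 and PAX9), beside 9.48%. With the highest-scoring 50% of each list, RING1B was left at PAX6 alone and EWSR1-FLI1 at 0 genes, and with a flank of 100 kb RING1B was also found at PAX9. In single replicates, H2Aub1 peaks were found at 7 genes in either replicate (32.9% and 19.4% of genome windows), and RING1B peaks at 3 genes in replicate 1 (10.4%) and 4 in replicate 2 (15.9%). PAX windows span 105435 to 295946 bp and genome windows include gene-poor stretches, so these percentages are a rough scale and not a test.

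**Figure D1:**
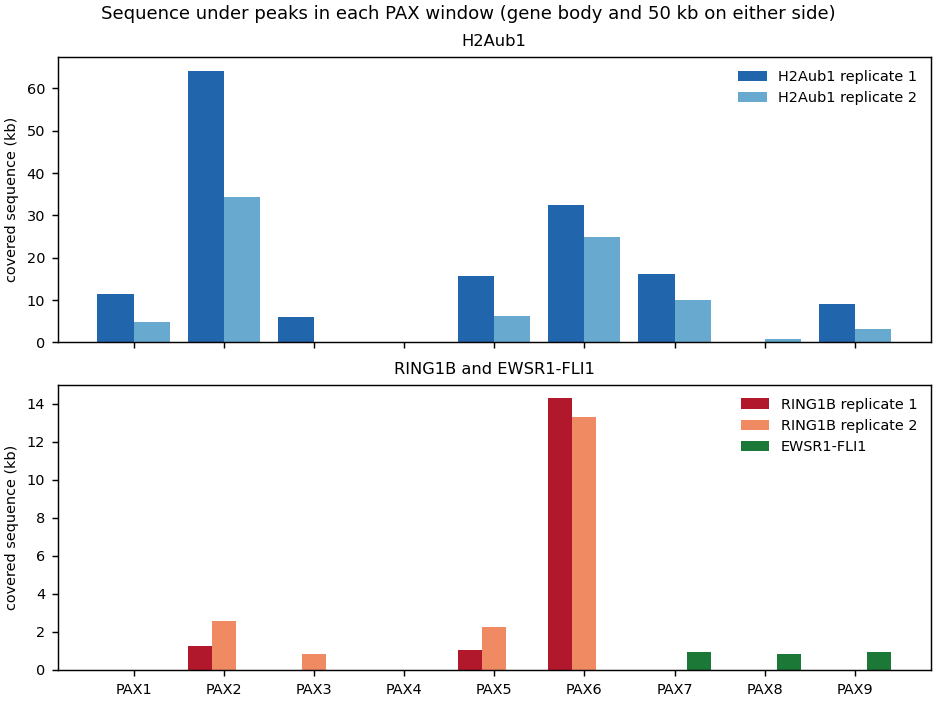
Sequence under peaks (kb, y axis) in the window of each PAX gene (x axis), as bars for H2Aub1 (top) and for RING1B and EWSR1-FLI1 (bottom), 1 bar per list. PAX2 had the most H2Aub1 (64.2 and 34.4 kb) and PAX6 the most RING1B (14.3 and 13.3 kb), and the 3 genes with EWSR1-FLI1 had no RING1B.

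H2Aub1 covered 10.2% of the 9 windows in replicate 1 and 5.57% in replicate 2, against means of 1.31% and 0.482% over genome windows. Reproducible H2Aub1 regions covered 6.89%, against 0.622%. Reproducible RING1B regions covered 1.12%, against 0.0833%, and 14.5 of their 17.0 kb lay at PAX6. By H2Aub1, PAX2 ranked first with 64.2 and 34.4 kb, and PAX6 second with 32.4 and 24.9 kb. They were followed in replicate 1 by PAX7 (16.2 kb), PAX5 (15.6 kb), PAX1 (11.5 kb), PAX9 (8.99 kb) and PAX3 (5.90 kb). Replicate 2 gave PAX7 10.0 kb, PAX5 6.32 kb, PAX1 4.84 kb, PAX9 3.23 kb and PAX8 0.878 kb. The first 6 genes stood in the same order by kilobases in both replicates, but windows differ in length. As a share of the window, replicate 1 gave PAX2 34.9%, PAX6 24.3%, PAX1 10.2%, PAX7 7.89%, PAX9 7.48% and PAX5 5.27%, and replicate 2 gave PAX2 and PAX6 18.7% each, PAX7 4.89%, PAX1 4.29%, PAX9 2.69% and PAX5 2.14%. By share, PAX1 and PAX7 changed places between replicates and PAX5 came last of the 6. PAX3 and PAX8 had the mark in 1 replicate each, and PAX4 in neither.

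Pooled over the PAX windows, peaks of the mark held a larger share of high scores than their list. Of the 63 peaks of replicate 1, 15 (23.8%) reached the score that 10.0% of all peaks of the list reach, and of the 35 peaks of replicate 2, 10 did (28.6%, beside 9.99%). In replicate 1 these peaks lay at PAX1, PAX2, PAX5, PAX6, PAX7 and PAX9. In replicate 2 most of them lay at PAX2 and the others at PAX1, PAX6 and PAX7, while PAX5, PAX8 and PAX9 had none. The pooled share of replicate 2 thus rests mainly on PAX2 and does not describe each gene. No interval was computed for these shares of high scores. The authors' score ranks peaks within a list, from a lowest value of about 50. Median scores of all H2Aub1 peaks in the PAX windows were 107 and 115, against 84.7 and 78.7 in the whole lists. Of the replicate 2 peaks, 30 of 35 met a peak of replicate 1 (85.7%, Wilson interval 70.6 to 93.7%, beside 77.3% of the whole list), and of the replicate 1 peaks 21 of 63 (33.3%, 22.9 to 45.6%, beside 26.6%). Both intervals contain the value of the whole list, and neighbouring peaks of 1 gene are not independent.

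**Figure D2:**
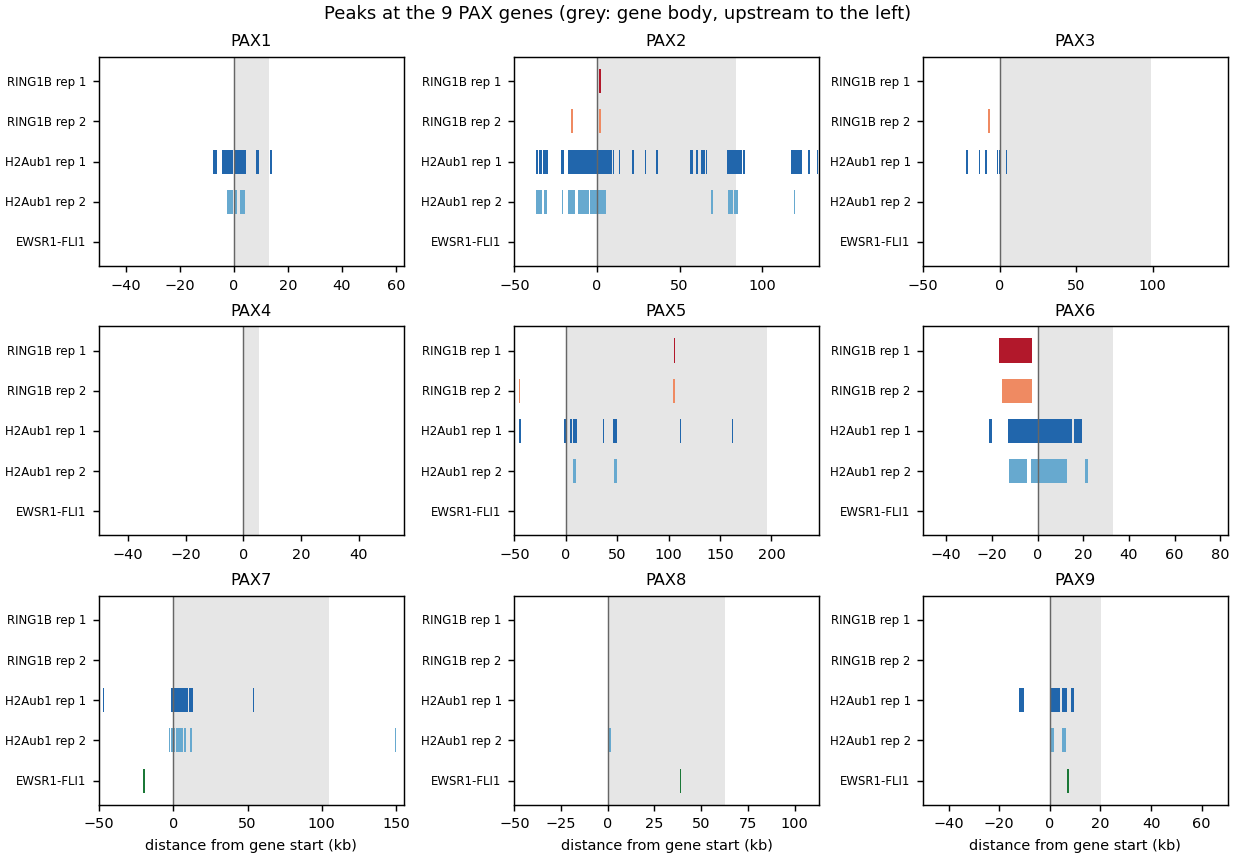
Peaks of the 5 lists (rows) at each PAX gene against the distance from the gene start (kb, x axis, upstream to the left). Grey marks the gene body, and for PAX1 the start is the end with the lower coordinate. H2Aub1 lies within 5 kb of the start in both replicates at PAX1, PAX2, PAX6, PAX7 and PAX9, and PAX4 has no peak.

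A reproducible H2Aub1 region came within 5 kb of the start at 5 genes (PAX1, PAX2, PAX6, PAX7 and PAX9), and a RING1B region at 2 (PAX2 and PAX6). No EWSR1-FLI1 peak lay that close to a start. The share over all gene starts was not computed, so the counts around starts describe these genes only. The start itself lay under a peak at 5 genes in replicate 1 (PAX1, PAX2, PAX3, PAX5 and PAX6) and at 2 in replicate 2 (PAX2 and PAX6). Of the 17 reproducible H2Aub1 regions, 3 spanned a start, 6 lay upstream, 7 in a gene body and 1 downstream. Among the 8 genes with a known strand, 6 had H2Aub1 of replicate 1 and 5 had H2Aub1 of replicate 2 in the first kilobase of the gene.

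**Figure D3:**
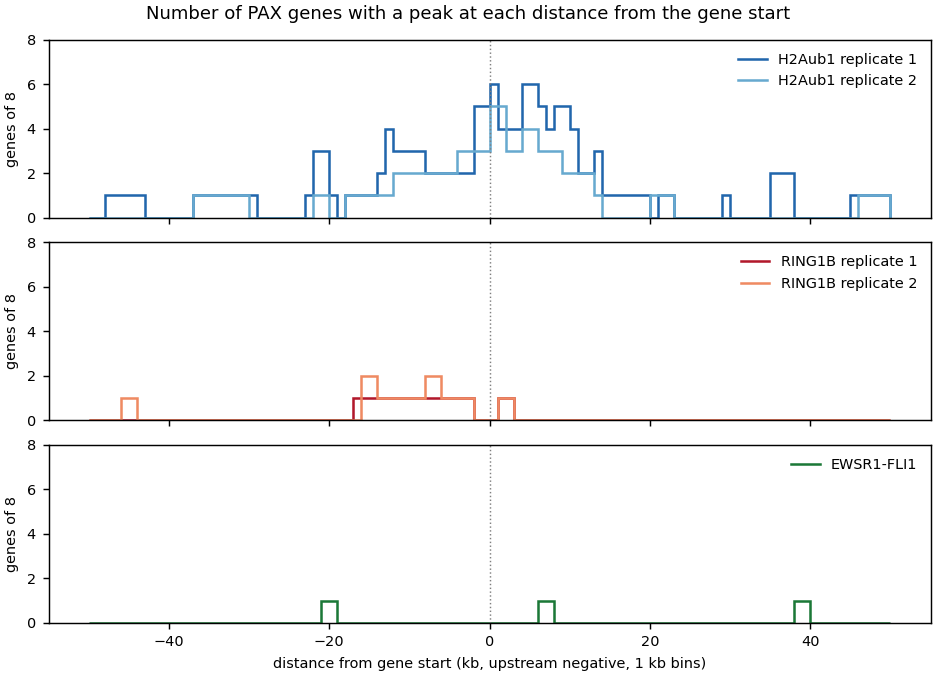
Number of PAX genes (y axis, of the 8 with a RefSeq strand) with a peak in each 1 kb bin by distance from the gene start (kb, x axis). H2Aub1 (top) reaches its highest counts downstream of the start, with 6 genes in replicate 1 (in the first kilobase and again from 4 to 6 kb) and 5 in replicate 2, while RING1B (middle) and EWSR1-FLI1 (bottom) reach at most 2 genes in any bin.

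PAX2, a regulator of kidney, eye and ear development, carried the widest reproducible H2Aub1 region of the family, joined through 1 peak of replicate 1. In replicate 2 the widest single peak of the family was at PAX6 (10486 bp), against 8866 bp at PAX2. Its gene body lies at chr10:102505468-102589698. In replicate 1 a single peak of 24160 bp with a score of 767.66 ran from 17.7 kb upstream to 6.46 kb downstream of the start, and it was the fourth widest of 26423 peaks. In replicate 2 the same stretch was split into 4 peaks. The peak over the start there had a score of 1500.17, the fourth highest of 10268, and the others scored 352.91, 422.65 and 66.85. A further H2Aub1 region of 9.38 kb spanned the far end of the gene (78.7 to 88.1 kb from the start), with scores of 1126.09 and 381.91. Of the 6 reproducible regions at PAX2, the one beginning 36.8 kb upstream and 3786 bp wide came next by score rank (scores 230.88 and 269.58).

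RING1B covered far less of the PAX2 window than the mark. Genome-wide, reproducible RING1B regions also covered less than those of H2Aub1 (2.53 against 18.9 Mb). The reproducible RING1B region measured 1273 bp, lay in the gene 1.08 to 2.35 kb from the start (chr10:102506548-102507820), and fell wholly inside the wide H2Aub1 domain. Its score was 159.38 in replicate 1, within the highest 25.9% of the list, and 60.24 in replicate 2, close to the lower bound of the list. A second RING1B peak, 14.5 to 16.0 kb upstream with a score of 168.38, was seen in replicate 2 only and also lay under H2Aub1.

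PAX6, the regulator of eye, brain and pancreas development, had the only wide RING1B region of the family. The region measured 14545 bp (chr11:31841786-31856330) and lay 2.28 to 16.8 kb upstream of the start. As joined here, it was the widest of all 1587 reproducible RING1B regions. It held 2 peaks in each replicate, joined where the narrower replicate 2 peak (31841786-31844960) reached into the wider replicate 1 peak (31844561-31856330). The wider peaks measured 11770 bp in replicate 1 and 10091 bp in replicate 2, and ranked 2 and 4 by width in their lists. With an overlap of 50% of the shorter region, 4 RING1B regions were counted in the PAX windows in place of 3. Scores were 933.72 and 105.12 in replicate 1 and 787.02 and 75.15 in replicate 2, and the stronger peak ranked 50th in both lists. In GRCh38 the genes within 50 kb of PAX6 are ELP4, a subunit of Elongator, and the noncoding RNAs ELP4-AS1, PAX6-AS1 and PAUPAR.

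H2Aub1 at PAX6 extended past RING1B into the gene. The first reproducible region, 18.4 kb wide, ran from 3.23 kb upstream to 15.2 kb downstream of the start, and the second, 9.29 kb wide, lay 3.42 to 12.7 kb upstream. Highest scores were 1847.61 and 254.18 for the first and 1436.65 and 854.32 for the second. Both replicates thus marked both stretches, but the strongest peak spanned the start in replicate 1 and lay upstream of it in replicate 2. Of the 14545 bp of the RING1B region, 10248 bp (70.5%) carried reproducible H2Aub1, and the remainder included the part farthest from the gene.

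Peaks were wide in the whole neighbourhood of PAX6. Within 5 Mb on either side, the median RING1B width was 2704 bp in replicate 1 (23 peaks) and 2496 bp in replicate 2 (28 peaks), which is 2.63 and 2.42 times the median elsewhere. EWSR1-FLI1 peaks there had a median of 2221.5 bp (8 peaks, 2.26 times), and H2Aub1 peaks were 1.29 times wider in both replicates. The same ratio stayed under 1.5 for each of the other 8 genes in every list with peaks there, the highest being 1.39 for H2Aub1 of replicate 1 around PAX9, and PAX2 had no EWSR1-FLI1 peak within that distance. The part of this neighbourhood in the widths at PAX6 was not tested.

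**Figure D4:**
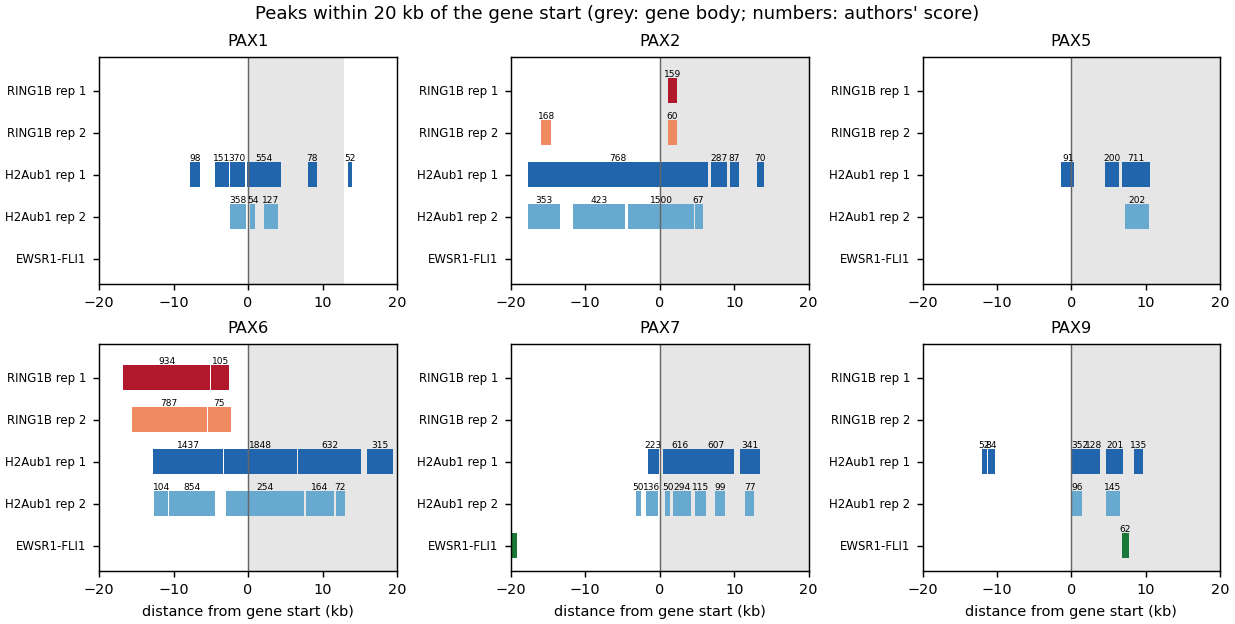
Peaks within 20 kb of the gene start (kb, x axis) at the 6 genes with reproducible H2Aub1, by list (rows), with the authors' score above each peak and the gene body in grey. At PAX2 and PAX6 the mark spans the start in both replicates, whereas at PAX7 and PAX9 no peak of either replicate covers the start itself.

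PAX5, the B-cell identity factor, had RING1B and H2Aub1 at separate places in its long gene. The RING1B region (1169 bp, chr9:36928591-36929759) lay 105 kb from the start inside the gene, with scores of 90.88 and 69.41, and shared no base with H2Aub1. The reproducible H2Aub1 regions lay 6.78 to 10.5 kb (scores 710.81 and 201.71) and 45.9 to 49.9 kb (433.9 and 169.79) from the start. The start itself had a peak in replicate 1 only, with a score of 91.32. A RING1B peak of replicate 2 (85.2) and an H2Aub1 peak of replicate 1 (106.93) met about 44.5 kb upstream, neither of them seen in the other replicate.

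PAX8, the factor of thyroid and kidney development and the remaining member of this group, carried little. It had 1 H2Aub1 peak in replicate 2 with a score of 61.1, 610 bp inside the gene, and no RING1B peak. Its EWSR1-FLI1 peak (chr2:113997246-113998068, 823 bp) lay in the gene body 38.4 kb from the start. The score of 87.06 was the highest of the 3 EWSR1-FLI1 peaks of the family and was below the list median of 93.9.

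PAX7, a muscle satellite cell factor that is also used as an immunostaining marker of Ewing sarcoma, had H2Aub1 on both sides of its start and no RING1B peak in its window. One region ended 166 bp upstream of the start (1632 bp, scores 222.91 and 136.12). The next began 419 bp inside the gene and was 9.60 kb wide (615.89 and 293.59), and another followed at 10.8 to 13.5 kb (340.79 and 76.9). The interval without a peak around the start measured 584 bp in replicate 1 and 983 bp in replicate 2. The nearest RING1B peaks of either replicate were 271 kb from the start.

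An EWSR1-FLI1 peak lay upstream of PAX7, 19.2 to 20.1 kb from the start (chr1:18937355-18938313, 959 bp). Its score of 69.67 ranked 1499th of 2145. It overlapped neither RING1B nor H2Aub1 in any replicate. PAX3, the relative of PAX7 in neural crest and muscle progenitors, differed from it in 3 of the 5 lists. It had 6 H2Aub1 peaks in replicate 1, with scores of 57.01 to 183.37 and 1 of them over the start (139.77), but none in replicate 2. The RING1B peak of PAX3 (score 56.7, replicate 2 only) lay 6.57 to 7.41 kb upstream.

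PAX1 and PAX9, which act in the pharyngeal pouches and the axial skeleton, resembled PAX7 in having H2Aub1 without RING1B within 50 kb of the gene. At PAX1 (chr20:21686297-21699124) the mark formed a region of 2212 bp ending 271 bp before the lower-coordinate end of the gene, with scores of 369.71 and 357.67. A second region of 4545 bp covered that end (553.66 and 126.97), but only through its replicate 1 peak, and replicate 2 left 489 bp around the end without a peak. At PAX9 the mark began 104 bp inside the gene (2013 bp, 352.46 and 96.01), and a second region lay at 4.63 to 6.90 kb (201.38 and 145). The nearest RING1B peaks were 129 kb from the start of PAX1 and 102 kb from that of PAX9.

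The EWSR1-FLI1 peak of PAX9 (chr14:37133531-37134458, 928 bp, score 62.36) lay in the gene 6.76 to 7.68 kb from the start. It shared 141 bp with the second H2Aub1 region, through the replicate 1 peak only. PAX4, an endocrine pancreas factor, had no peak of any list in its window of 105435 bp. The nearest reproducible H2Aub1 region was 363 kb from its start and the nearest RING1B region 750 kb.

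**Figure D5:**
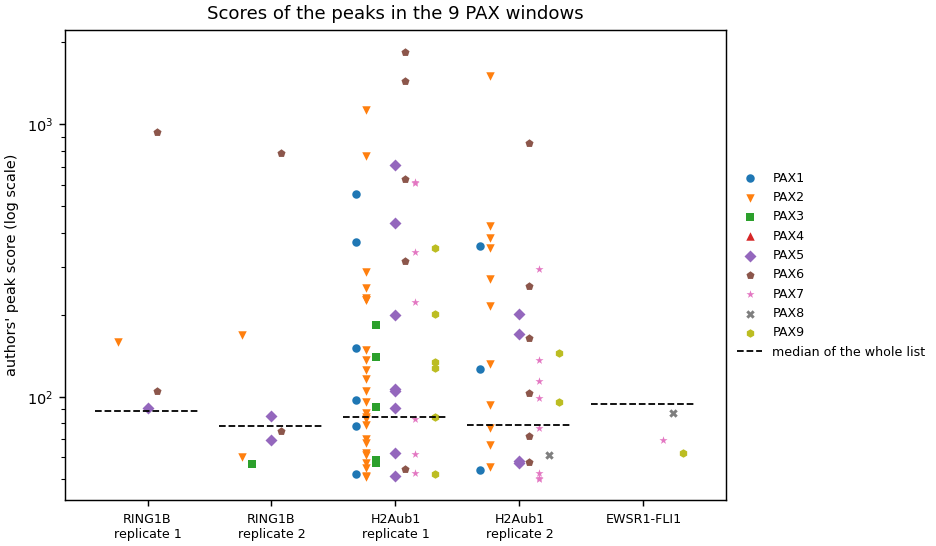
Authors' score (log scale, y axis) of each of the 112 peaks in the PAX windows by list (x axis), with 1 symbol per gene and a dashed line at the median of the whole list. The RING1B peaks of PAX6 at 933.72 and 787.02 stand above all other RING1B peaks of the family, and the 3 EWSR1-FLI1 peaks lie below their list median.

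RING1B peaks recurred between replicates at PAX2, PAX5 and PAX6. All 4 peaks of replicate 1 met a peak of replicate 2 (100%, Wilson interval 51.0 to 100%, beside 62.6% of that list). Of the 7 peaks of replicate 2, 4 met one of replicate 1 (57.1%, 25.0 to 84.2%, beside 40.9%). The remaining 3 were the single peaks upstream of PAX2, PAX3 and PAX5. Both intervals contain the value of the whole list, and neighbouring peaks of 1 gene are not independent.

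RING1B and H2Aub1 met at a minority of the sites where H2Aub1 was found. Of the 3 reproducible RING1B regions, 2 overlapped H2Aub1 (66.7%, Wilson interval 20.8 to 93.9%), beside 19.8% of all reproducible RING1B regions, and 3 regions are too few to set the family apart. Conversely, 3 of the 17 H2Aub1 regions met RING1B (17.6%, 6.19 to 41.0%), beside 4.98% genome-wide. The value of 4.98% falls below this interval, but 2 of the 3 regions lay at PAX6 and met the same RING1B region. Neighbouring regions of 1 gene are not independent, so the interval cannot set the family apart. With RING1B peaks of either replicate the count was also 3, beside 9.94%, and an interval of this width includes that value. RING1B at PAX1, PAX7 and PAX9 was thus not detected in either list at unknown depth, which does not show that it was absent.

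None of the 3 EWSR1-FLI1 peaks overlapped RING1B of either replicate (0%, Wilson upper bound 56.1%), whereas 67.6% of all EWSR1-FLI1 peaks did. With 3 peaks, all of them scored below the list median, no more can be read from it. H2Aub1 overlapped 1 of the 3 (33.3%, 6.15 to 79.2%), beside 8.81% of the list. None of the 3 RING1B regions overlapped EWSR1-FLI1, beside 56.2% genome-wide.

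Likeness of the loci was read first from the lists with a peak and then from the covered share. PAX7 and PAX9 shared the presence or absence of peaks in 5 of 5 lists, with the smallest summed difference in covered share among the pairs that matched in all 5 (2.92 percentage points). PAX2, PAX5 and PAX6 also matched each other in 5 of 5, but with summed differences of 29.2 points (PAX2 and PAX6), 47.1 points (PAX2 and PAX5) and 55.2 points (PAX5 and PAX6), and PAX1 was closest to PAX7 (4 of 5, 3.39 points). Within the groups of relatives, PAX2 and PAX5 matched in 5 lists in presence though not in covered share, PAX1 and PAX9 in 4, PAX3 and PAX7 in 2, and PAX4 and PAX6, as well as PAX8 with either of its relatives, in 1. A locus with few peaks can match another through lists that lack peaks at both.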

How the data were processed

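The 5 peak lists came from ChIP-seq of A673 cells, 2 lists each for RING1B and H2Aub1 and 1 for EWSR1-FLI1. Per the submitters' processing notes, reads were handled with Bowtie, with hg19 named for all 5 lists and mm9 named as well for RING1B and H2Aub1. What mm9 served for, which Bowtie version was run and whether input was used are not given in the sources used here. Per the files, MACS is part of every peak's name. The score in each deposited list was computed by the authors, its scale is not given, and here it only orders peaks inside 1 list.

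The title lines of replicate 1 and replicate 2 are not alike for either target, and what the difference stands for is not given. The lists hold no read counts, so depth is unknown.

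Windows were the hg19 gene bodies of the 9 PAX genes and 50 kb on either side. Overlapping peaks (1 bp or more) were joined, and a joined region with a peak from each replicate was called reproducible. For comparison, the 23 chromosomes of hg19 (autosomes and X, lengths from the GenomeInfoDb package, gaps not left out) were divided into 18623 consecutive windows of 162925 bp, the median PAX window. No test was run, because the lists hold 1 condition. The 95% Wilson intervals of shares reflect the number of regions counted and no other error. Joining and overlap counting were tested on simulated data (Python 3.11.15, scipy 1.17.1).

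Strand, promoter sequence and neighbouring genes came from RefSeq tables of GRCh38.p14, which were not placed on hg19 coordinates. All 9 genes were named, as were all EWSR1-FLI1 peaks and RING1B regions, and all H2Aub1 regions where a window held 5 or fewer (otherwise the 3 with the best mean score rank). The members and rules were chosen with earlier results of these data known. The planned list of PAX partner genes was not analysed here, since an hg19 annotation was not used. Alternatives were other flanks, the higher-scoring part of each list, a stricter overlap, the union of replicates and each replicate left out. Likeness of 2 loci was the number of lists with the same presence or absence of peaks, then the summed difference in covered share.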

Additional observations from a re-analysis of the deposited data

How the results depend on the processing

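Of 60 alternative values computed for 8 counts and shares, 46 stayed within 1.5 times the reported count or within the interval of the share, and 14 did not. H2Aub1 was present at the same 6 genes with flanks of 0, 10 and 100 kb, with the highest-scoring 50% of each list and with an overlap of 50% of the shorter region; it was present at 8 genes for the union of replicates and at 7 without either replicate. With the highest-scoring 50% of each list, RING1B remained at 1 gene (PAX6, 1 region, 1 locus overlapping H2Aub1, 100%), and EWSR1-FLI1 had 0 peaks at 0 genes. With gene bodies alone, 1 locus had RING1B overlapping H2Aub1, since the RING1B region of PAX6 lies upstream, and 10 H2Aub1 regions were counted. A flank of 100 kb gave 5 EWSR1-FLI1 peaks and added PAX9 to the genes with RING1B (4 genes). The union of replicates gave 6 RING1B and 64 H2Aub1 regions. Leaving out a replicate gave 4 to 7 RING1B regions (7 without RING1B replicate 1) and 35 to 63 H2Aub1 regions (35 without H2Aub1 replicate 1), because single lists were then counted. The share of RING1B regions with H2Aub1 ranged from 57.1 to 75% when a replicate was left out. The first EWSR1-FLI1 peak outside a window lay 82.0 kb beyond PAX9 with a score of 325.81, and the last inside lay 19.2 kb from PAX7 (69.67). No paired analysis was possible because no result comes from a test.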

Other observations

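The 9 RefSeq starts of PAX6 differed in CpG content. Of these, 5 reached both a CpG ratio of 0.6 and a GC content of 50%, with ratios from 0.23 to 0.92 over all 9. Beyond the 50 kb limit, the nearest RING1B peak of replicate 2 to any PAX gene body lay 82.1 kb from PAX9 (chr14:37229082-37230009, score 151.18), at the same place as an EWSR1-FLI1 peak (chr14:37229037-37230061, score 325.81). RING1B replicate 1 had a peak 60.6 kb beyond PAX2 with a score of 51.43, near the lower bound of the list.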
